A study of Mus musculus with 8 samples.

Results

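The MHC class II genes and their regulator Ciita were examined across 8 RNA seq samples of mouse Th17 cell cultures. Members were taken by symbol: chains of the classical molecules (H2-Aa, H2-Ab1 and H2-Eb1), the invariant chain Cd74, the peptide exchange chains H2-DMa, H2-DMb1 and H2-DMb2, their modulators H2-Oa and H2-Ob, and Ciita. All 10 were among the 22829 genes listed, and all 10 had a mean of at least 10 normalized counts, as did 16982 genes in all. The T cells carried the ROR-γt-/- genotype. They were transduced with a lentivirus for either wild-type ROR-γt (WT, n = 4) or K187R-ROR-γt (K187R, n = 4), a mutant whose acceptor lysine for SUMO is replaced by arginine, and then differentiated under Th17-inducing conditions. ROR-γt is the transcription factor that directs the Th17 programme, and the comparison asks what the SUMO acceptor site of ROR-γt changes in the transcriptome of these cells. Both groups therefore lack the endogenous factor, and the factor that each group has comes from a virus. By the study's methods CD4+ T cells were enriched from the spleen on magnetic beads, and no later sort of the RNA seq samples is described. The design text speaks of 4 mice in each group, but the labels only number the samples from 1 to 4 and tie none to an animal or a culture, so the p-values measure only the spread between these samples.

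MHC class II molecules are heterodimers of an α and a β chain that present peptides from the endosomal pathway to CD4+ T cells. B cells, dendritic cells and macrophages are their main sites of expression, and mouse T cells, unlike activated human T cells, are known for carrying little class II mRNA of their own. Ciita is a coactivator that does not bind DNA itself. It is recruited to the promoters of the class II genes by factors bound at conserved elements called the X and Y boxes, and its presence largely sets whether the genes are transcribed.

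The classical and nonclassical class II genes lie within a stretch of chromosome 17 (GRCm38, 34092340 to 34316674 from the start of H2-Oa to the end of H2-Eb1), and Ciita lies on chromosome 16 (10480059 to 10528418, plus strand). The promoter sequences below are shown because Ciita is known to reach these genes through the X and Y boxes of their promoters. The windows were searched for the letters of both, and not every window held them. RefSeq promoter entries on GRCm38.p6 were found for H2-Aa, H2-Eb1, H2-DMa, H2-DMb1, H2-DMb2, H2-Oa and H2-Ob. No entry was found for H2-Ab1 or Ciita, and the promoter of Cd74 was not used here. The lines give bases -120 to -39 from the RefSeq start, 82 bases read 5′ to 3′ on the strand of the gene. Capitals mark ATTGG, the Y box (CCAAT on the other strand), and CCNAGNNAC, a core of the X box. The 2 motifs do not overlap in these windows.
H2-Aa (chr17:34287862-34287943, minus strand): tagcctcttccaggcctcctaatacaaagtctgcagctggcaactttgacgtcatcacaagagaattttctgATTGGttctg
H2-Eb1 (chr17:34305747-34305828, plus strand): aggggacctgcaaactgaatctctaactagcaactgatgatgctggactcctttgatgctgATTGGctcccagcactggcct
H2-DMb2 (chr17:34145129-34145210, plus strand): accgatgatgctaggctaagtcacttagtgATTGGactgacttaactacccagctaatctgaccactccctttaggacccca
H2-Oa (chr17:34092259-34092340, plus strand): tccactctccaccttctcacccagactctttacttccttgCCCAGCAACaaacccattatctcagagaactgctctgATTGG
H2-Ob (chr17:34238785-34238866, plus strand): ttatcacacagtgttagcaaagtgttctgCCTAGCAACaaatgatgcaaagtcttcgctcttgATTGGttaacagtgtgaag
H2-DMa (chr17:34122712-34122793, plus strand): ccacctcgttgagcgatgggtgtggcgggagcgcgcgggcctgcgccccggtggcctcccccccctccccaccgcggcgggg

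Counted from the start site, ATTGG on the strand of the gene began at -48 in H2-Aa, -59 in H2-Eb1, -57 in H2-Ob, -43 in H2-Oa, -90 in H2-DMb2 and -61 in H2-DMb1. Of all 32841 promoter windows of 120 bases, 11.9% held ATTGG on that strand and 21.3% on either strand. The exact letters of the X box core lay before the Y box, on the same strand, in H2-Oa (28 bases between them), H2-DMb1 (28 bases) and H2-Ob (25 bases). The lines of H2-Eb1 (actagcaac) and H2-Aa (gctggcaac) hold letters close to the core before ATTGG. Such near matches were not counted, so an unmarked line does not mean that the gene lacks an X box. An X box core 20 to 40 bases before a Y box was found in 15 of the 32841 windows, or 0.0457%, and 7.05% held the core alone on either strand. The letters of neither motif were in the windows of the 2 H2-DMa starts. Both windows (from 34122712 and 34125398) lie inside the annotated gene, which begins upstream at 34119541. The window of H2-DMb2 (from 34145129) also lies inside its gene, which begins at 34143307. The bases before those upstream gene starts were not searched, so the windows do not show whether H2-DMa has the boxes there. The letters AGGTCA, a core that ROR factors are known to bind, were searched on both strands and were in the window of H2-DMb1 only, at -54, against 6.91% of all windows. They overlap neither ATTGG nor the X box core there. A match is a description of letters, not of a bound site. The window of H2-DMb1 is not printed because annotated transcripts of the gene begin upstream of this start and cover 119 of its 120 bases.

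The values are normalized counts, the reads assigned to a gene divided by 1 size factor per sample. Total reads ranged from 52456804 to 74676721 per sample, and 3 reads, the floor for a gene at 0, correspond to 2.54 to 3.56 normalized counts. Every member was far above that floor, at 118 reads or more in every sample. All members together took 0.0179% to 0.103% of the reads of a sample. Clustering of the samples on the 16972 genes that were tested and are not members gave 3 sets that cut across the groups: WT 1, WT 3 and K187R 1 (set 1), WT 2, K187R 2 and K187R 3 (set 2), and WT 4 and K187R 4 (set 3). In a principal component analysis of the same genes, PC1 took 43.0% and PC2 29.0% of the variance. The 3 samples of set 2 had 13564 to 17373 normalized counts of Xist, an RNA made from the inactive X chromosome, and the other 5 samples had 3.56 to 23.7. The labels name no batch, so the sets are a description of these data.

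Levels of different members can be compared only per length. Per kilobase of the principal transcript, Cd74 was the most abundant, with a mean of 9041 normalized counts over the 8 samples, followed by H2-Aa at 4625, H2-Ab1 at 3137, H2-Eb1 at 2259 and H2-DMa at 1546. The remaining members stood about an order of magnitude lower, with H2-Ob at 241, H2-DMb2 at 235, H2-DMb1 at 219, H2-Oa at 192 and Ciita at 116. Neighbours in this lower group were not separated, since the 8 values of each of H2-Ob, H2-DMb2, H2-DMb1 and H2-Oa overlapped. H2-DMa did not keep its place in the order across samples: in WT 4 its level per kilobase, 1464, exceeded that of H2-Aa (1230), H2-Ab1 (822) and H2-Eb1 (518). Per kilobase of all merged exons the order of the classical chains turned to H2-Eb1 (1939), H2-Ab1 (1481) and H2-Aa (1374), so the order of these 3 depends on the length used, while Cd74 was the highest (7593) and Ciita the lowest (73.0) under both.

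**Figure D1:**
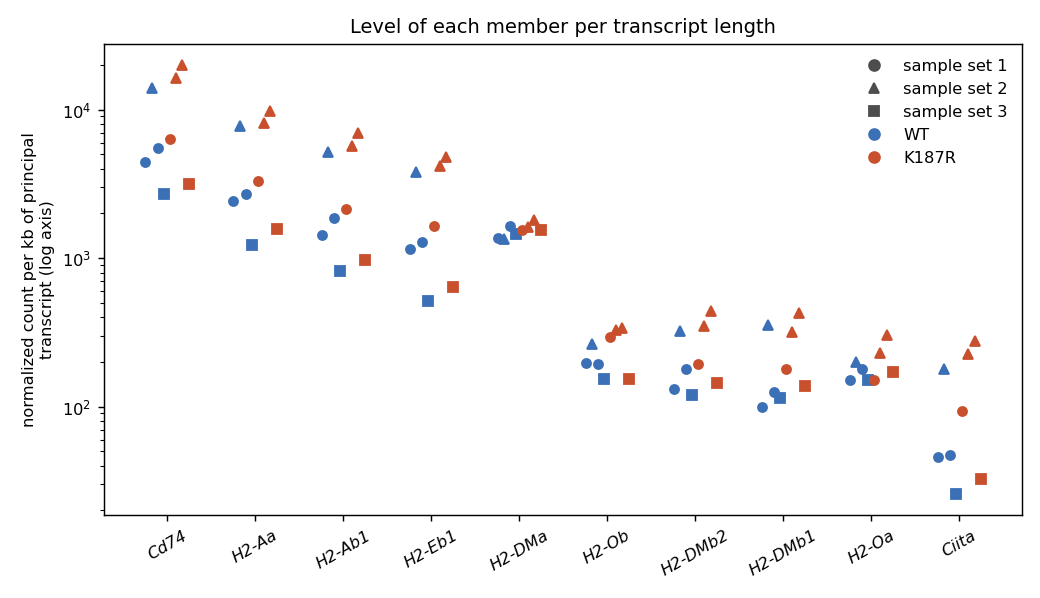
Normalized count per kilobase of the principal transcript (log axis) of each member in each of the 8 samples, blue for WT and red for K187R, with the symbol shape giving the sample set. Cd74 is highest by its mean (9041) and Ciita lowest (116), and H2-DMa is the member whose 8 points lie closest together.

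Ciita, the regulator, had 277, 1079.6, 285 and 155 normalized counts in WT 1 to 4 and 565, 1361, 1651 and 196 in K187R 1 to 4. WT 2, K187R 2 and K187R 3 were the 3 high samples, the samples numbered 4 of both groups were the lowest, and the groups overlapped widely. WT averaged 449 ± 425 (SD, n = 4) and K187R averaged 943 ± 678 (SD, n = 4). The log2 fold change, K187R minus WT on the log2(normalized count + 1) scale used throughout, was 1.06 (SE 0.74, 95% interval -0.60 to 2.71), the largest of the members. The difference did not pass limma's test (adjusted p = 0.921), and the exact two-sided permutation test of the 8 samples gave p = 0.286, where the smallest p that 4 against 4 allows is 0.0286.

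H2-Aa, the α chain of the I-A molecule, had 2729, 8795, 3058 and 1387 normalized counts in WT 1 to 4 and 3732, 9232, 11033 and 1769 in K187R 1 to 4. The order of the samples was close to that of Ciita, with the 3 samples of set 2 at 8795 or more and the other 5 at 3732 or less. H2-Ab1, its β chain, had 1737, 6332, 2246 and 996 in WT 1 to 4 and 2607, 6849, 8468 and 1182 in K187R 1 to 4. H2-Eb1, the β chain of I-E, had 1913, 6376, 2137 and 864 in WT 1 to 4 and 2760, 6969, 8068 and 1074 in K187R 1 to 4. In all 3 genes K187R 3 was the highest sample, WT 4 the lowest, and the groups overlapped. The log2 fold change was 0.68 (SE 0.66) for H2-Aa, 0.71 (SE 0.69) for H2-Ab1 and 0.72 (SE 0.72) for H2-Eb1, in each case with an interval from below -0.8 to above 2 and an adjusted p of 0.923 in limma. The exact permutation p was 0.429 for H2-Aa, 0.400 for H2-Ab1 and 0.429 for H2-Eb1. H2-Eb2, a further β chain gene of the locus outside the members, had 80.8, 182, 51.6 and 20.9 in WT 1 to 4 and 117, 184, 191 and 32.9 in K187R 1 to 4, again with set 2 highest (log2 fold change 0.76, SE 0.71, adjusted p = 0.922 in limma). H2-Ea and H2-Ea-ps, symbols of the α chain gene of I-E, were not among the genes listed.

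Cd74, the invariant chain that occupies the peptide groove and carries class II molecules to the endosome, was the most abundant member. It had 6230.0, 19814, 7763 and 3824 normalized counts in WT 1 to 4 and 8907, 23018, 27987 and 4440.05 in K187R 1 to 4. The samples of set 2 were again the 3 highest, and both samples numbered 4 were the lowest. The log2 fold change was 0.70 (SE 0.64, 95% interval -0.73 to 2.13), with an adjusted p of 0.922 in limma and an exact permutation p of 0.371.

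The peptide exchange chains did not move as one. H2-DMb1, a β chain of the DM complex that removes the invariant chain fragment from the groove, had 140.2, 497, 175 and 161 normalized counts in WT 1 to 4 and 252, 447, 596 and 194 in K187R 1 to 4. H2-DMb2, the second β chain gene, had 188, 459.5, 256 and 169.9 in WT 1 to 4 and 278, 493, 627 and 206 in K187R 1 to 4. Both had set 2 above the other 5 samples, like the classical chains. H2-DMa, the α chain of the same complex, had 2273, 2241, 2719.8 and 2428 in WT 1 to 4 and 2570.0, 2694, 2995 and 2584 in K187R 1 to 4. Its highest sample was only 1.34 times its lowest, against 4.25 times for H2-DMb1, 3.69 times for H2-DMb2 and 10.6 times for Ciita, and WT 2, among the highest samples for the other members, was its lowest. The log2 fold change was 0.17 (SE 0.088, 95% interval -0.03 to 0.37, exact permutation p = 0.114) for H2-DMa, 0.68 (SE 0.46, exact permutation p = 0.229) for H2-DMb1 and 0.56 (SE 0.40, exact permutation p = 0.229) for H2-DMb2, each with an adjusted p of 0.921 in limma. Of the exon bases of H2-DMa, 10.4% overlap Brd2 on the opposite strand, and the strand setting of the counting is not given in the sources used here, so a part of its reads may belong to Brd2.

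H2-Oa and H2-Ob form the DO complex, which restrains DM. H2-Oa had 164, 216, 195 and 166 normalized counts in WT 1 to 4 and 165, 249, 333 and 186 in K187R 1 to 4. H2-Ob had 525, 704, 521 and 412 in WT 1 to 4 and 781, 877, 910.1 and 412 in K187R 1 to 4. The spread was narrower than for the classical chains, with a highest sample 2.03 times the lowest for H2-Oa and 2.21 times for H2-Ob. K187R 1 lay above all 4 WT samples for H2-Ob and level with the lowest WT samples for H2-Oa, so the chains of this pair did not keep a fixed ratio (H2-Oa over H2-Ob, 0.211 to 0.451). The log2 fold change was 0.29 (SE 0.23, exact permutation p = 0.343) for H2-Oa and 0.42 (SE 0.26, exact permutation p = 0.257) for H2-Ob, with an adjusted p of 0.921 in limma for each. Of the exon bases of H2-Oa, 22.8% are shared with BC051537 on the opposite strand.

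**Figure D2:**
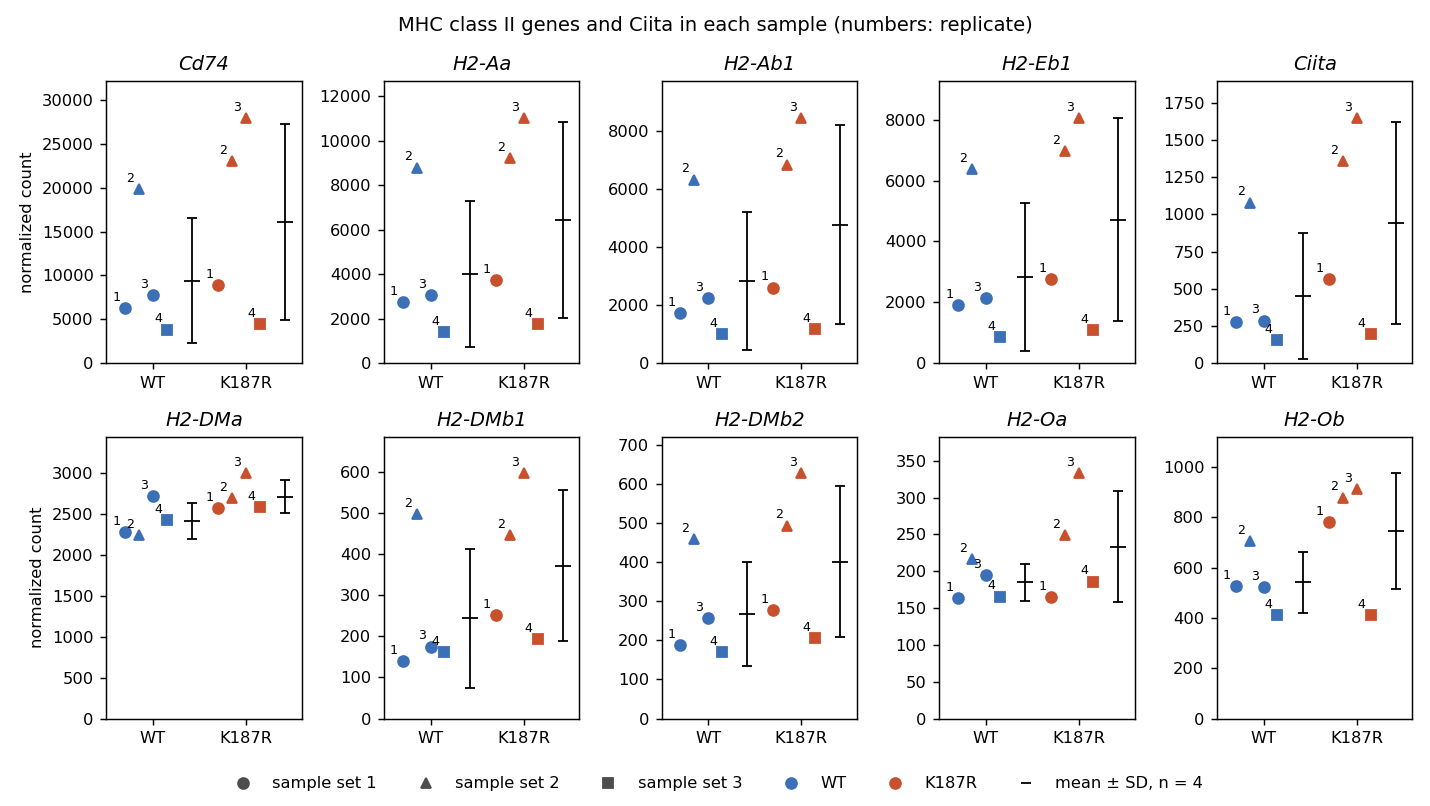
Normalized count (linear axes from 0) of each member in the 4 WT (blue) and 4 K187R (red) samples, numbered by replicate, with the symbol shape giving the sample set and black bars the mean ± SD of each group. For Cd74, the classical chains and Ciita the triangles of set 2 stand above all other points in both groups, and for H2-DMa the 8 points lie between 2241 and 2995.

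Over the 10 members, none passed the threshold of an adjusted p under 0.05 in limma, as was so for all genes tested (0.0% called). At an unadjusted p under 0.05 there were 0 members and 746 of the 16982 genes. edgeR's quasi-likelihood test on the recovered reads also called 0 genes, and DESeq2 called 27, with 0 members among them. All 10 members had a higher mean log2 value in K187R, a direction that 48.4% of all genes had. The median log2 fold change was 0.68 over the members, with a range of 0.17 to 1.06, and -0.0062 over all genes tested. For no member did every K187R sample lie above every WT sample (1.47% of all genes). The members share the samples and varied together across them, so their common direction is 1 observation and not 10. Leaving out single samples moved the median by over 1.5 times: it was 1.12 without WT 2 and 1.07 without K187R 4, and 0.31 without WT 4, 0.31 without K187R 3 and 0.41 without K187R 2.

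The differences between the 3 sets of samples were larger than those between the groups. For 8 of the 10 members, all except H2-DMa and H2-Ob, the 3 samples of set 2 were above the other 5, which was so for 8.46% of all genes. The mean of set 2 was 4.62 times that of the other 5 for Ciita, 4.12 times for H2-Ab1, 4.08 times for H2-Eb1, 3.82 times for H2-Aa and 3.79 times for Cd74, but 1.52 times for H2-Oa and 1.05 times for H2-DMa. Of the sum of squares of the log2 values over the 8 samples, a median of 91.6% lay between the sets for the members and 51.6% for all genes tested. Between WT and K187R it was 18.0% for the members and 9.11% for all genes, and the shares overlap because the sets hold unequal numbers of each group. H2-DMa was the exception, with 5.72% between the sets and 41.3% between the groups. Over all members the highest sample was a median of 5.79 times the lowest, against 1.55 times for all genes. These values describe the samples, and what separates the sets, including the difference in Xist that goes with set 2, was not tested.

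Within the sets the K187R samples were mostly the higher ones. For H2-Aa, H2-Ab1, H2-Eb1, H2-DMb2, Cd74 and Ciita every K187R sample lay above every WT sample of its own set in all 3 sets, that is for 6 of the 10 members and for 8.94% of all genes. The trait is not particular to the members. Among the cell type markers tested, described below, it held for 8 of 12 of B cells, 3 of 4 of dendritic cells and 5 of 7 of Th17 cells. It held for 3 of 12 markers of monocytes and macrophages and 2 of 10 of T cells. For Ciita the K187R mean exceeded the WT mean by 1.01 on the log2 scale within set 1, by 0.47 within set 2 and by 0.33 within set 3. H2-DMb1 failed because K187R 2 was below WT 2, H2-DMa because K187R 1 was below WT 3, H2-Ob because K187R 4 and WT 4 were level, and H2-Oa because K187R 1 was below WT 3. With the sample set as a factor in limma, the median log2 fold change of the members was 0.31, against 0.68 without it, and the median SE fell from 0.55 to 0.11. Ciita then had a log2 fold change of 0.63 (SE 0.14, 95% interval 0.32 to 0.93, adjusted p = 0.264), H2-Eb1 0.33 (SE 0.084, adjusted p = 0.294), Cd74 0.32 (SE 0.095, adjusted p = 0.409) and H2-Aa 0.30 (SE 0.084, adjusted p = 0.370). No member passed in that fit, in which 1 gene in all was called (0.00589%). At an unadjusted p under 0.05 it held 6 of the 10 members and 1394 of the 16982 genes. DESeq2 and edgeR with the sample set were fits chosen after seeing the data. DESeq2 called 143 of 13977 genes, among them Ciita (log2 fold change 0.64, SE 0.14, adjusted p = 0.00219) and no other member. edgeR called 1 of 16982 genes, and Ciita was not called (0.64, adjusted p = 0.233). Without the 3 samples of set 2 the median was 0.18 and that of Ciita 0.53 (SE 0.48, limma adjusted p = 0.99998), with 3 WT and 2 K187R samples left.

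**Figure D3:**
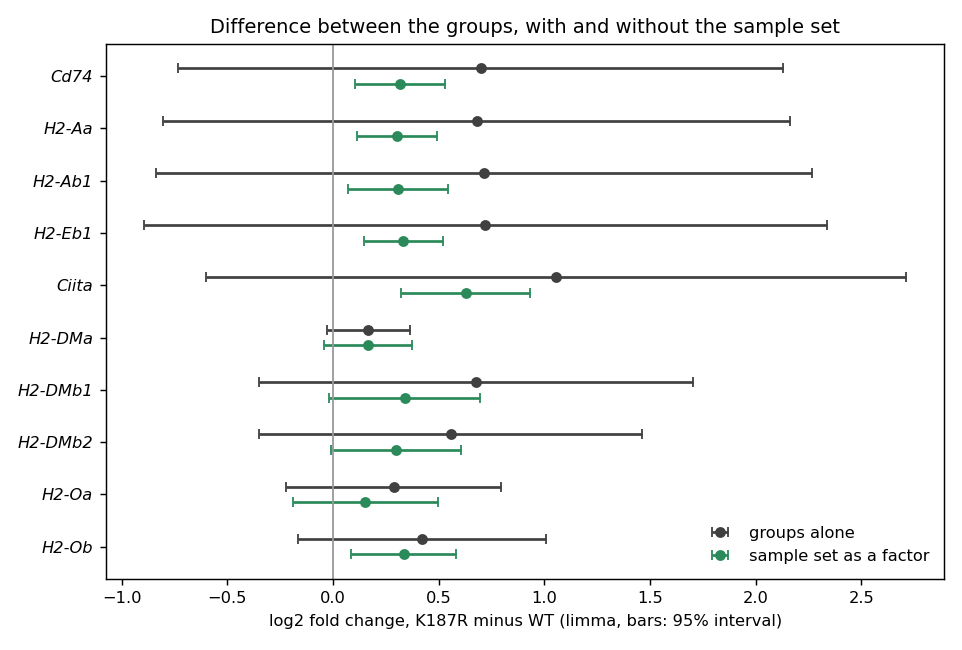
Log2 fold change of each member, K187R minus WT, from limma with the 2 groups alone (grey) and with the sample set as a factor (green), with bars for the 95% interval. With the groups alone all 10 intervals cross 0, and with the sample set they are narrower, that of Ciita running from 0.32 to 0.93, while no adjusted p is under 0.05 in either fit.

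The classical chains and Cd74 kept nearly fixed ratios to each other from sample to sample. H2-Ab1 over H2-Aa ran from 0.636 to 0.768, H2-Eb1 over H2-Aa from 0.607 to 0.755, and Cd74 over H2-Aa from 2.25 to 2.76, so the highest ratio was at most 1.24 times the lowest, while H2-Aa itself varied 7.95 times. H2-Aa over Ciita varied more, from 6.61 to 10.7. H2-DMa over H2-DMb1, the balance of the α and a β chain transcript of DM, was 4.51 to 6.03 in the samples of set 2 and 10.2 to 16.2 in the other 5. Of the 17 ratios computed, H2-Eb1 over Ciita was singled out after its values were seen. It was 6.91, 5.91, 7.499 and 5.57 in WT 1 to 4 and 4.89, 5.12, 4.89 and 5.49 in K187R 1 to 4, so the groups did not overlap for this ratio, and it is given with no test. Over the 8 samples, which share the 3 sets, the log2 values of H2-Aa had a Pearson r of 0.998 with H2-Ab1, 0.999 with H2-Eb1, 0.997 with Cd74 and 0.988 with Ciita. H2-DMa had an r of 0.319 to 0.664 with the other members.

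The genes most like the members were sought by Pearson r with the mean of the members' log2 values over the 8 samples, among 13357 genes with a mean of at least 50. They were Cxcl16 (r = 0.997), Igkc (0.992), Tmem176b (0.992), Sod2 (0.992), H2-M2 (0.991), Tmem176a (0.990), Ap1m2 (0.990), Mtmr4 (0.989), Zbtb46 (0.989), Tlr9 (0.988), Fscn1 (0.987) and Ccl22 (0.986). Igkc is the constant region of the immunoglobulin κ light chain and is known from B lineage cells. Zbtb46 is a transcription factor known from classical dendritic cells, Ccl22 and Fscn1 are known from mature dendritic cells, and Tlr9 is a DNA sensor of B cells and dendritic cells. The others, Cxcl16 with the highest r, Tmem176b, Sod2, H2-M2, Tmem176a, Ap1m2 and Mtmr4, were not assigned to a cell type here. Of all these genes only Zbtb46 was in the cell type marker lists described below. Igkc had 392, 1998, 524 and 259 normalized counts in WT 1 to 4, and Ccl22 had 607, 3179, 681 and 433, in each case with WT 2 far above the other WT samples as for class II. For Ciita alone the closest genes were Ap1m2 (0.996), Cxcl16 (0.995), Zbtb46, Tmem176a and Tmem176b (0.994 each) and Igkc (0.993).

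**Figure D4:**
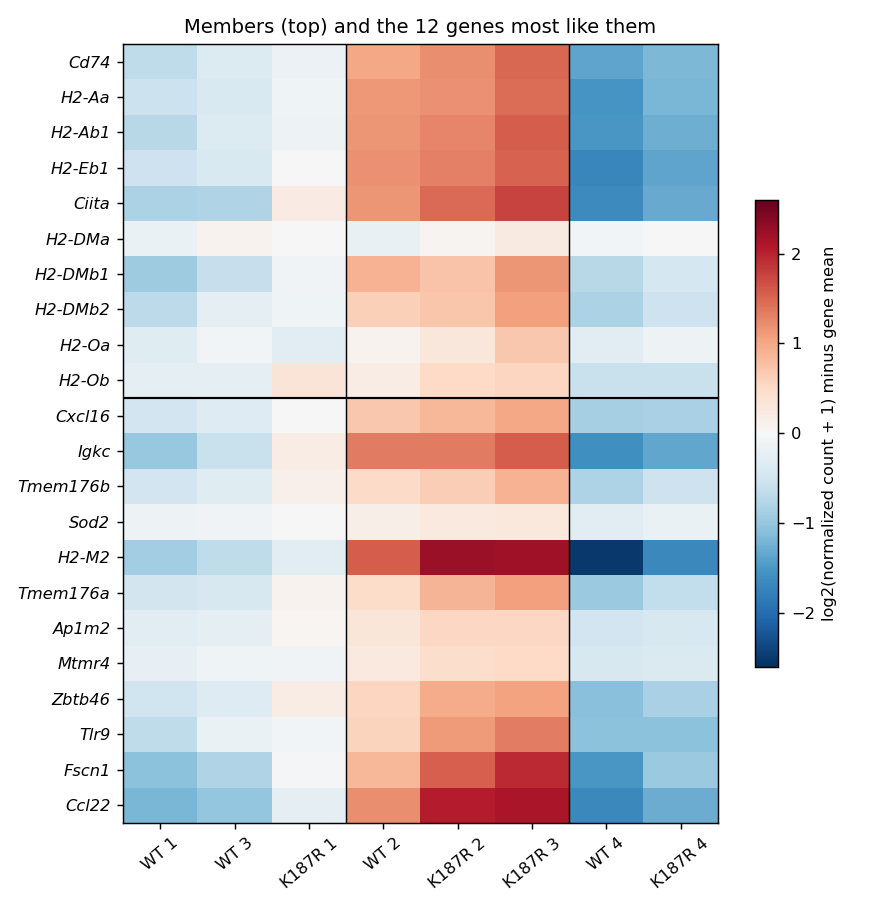
Log2(normalized count + 1) minus the gene's own mean over the 8 samples, for the 10 members above the black line and the 12 genes with the highest Pearson r to them below it, with samples ordered by set. Set 2 is red and set 3 blue for most rows, and H2-DMa is nearly uncoloured.

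The RNA is from whole cultures, where fewer cells of a type and less RNA per cell cannot be told apart, and the markers of class II cell types moved with the members in part. Of 14 B cell markers 12 were tested, 12 of 12 had the higher mean in K187R, and none passed in limma. The median log2 fold change was 0.42, and 0.45 with the sample set as a factor. Set 2 was above the other samples for 3, namely Spib, Ighm and Blnk, with an r of 0.962, 0.952 and 0.946 to the member mean. The other tested B cell markers had an r of 0.525 (Ighd) to 0.858 (Bank1). The summed level of the B cell markers was 11314 to 15933 normalized counts in WT and 11197 to 18858 in K187R, most of it Ighm. Cd79a, a chain of the B cell receptor complex, had 220, 292, 209 and 68.8 in WT 1 to 4 and 366, 342, 334 and 103 in K187R 1 to 4. Pax5, a defining factor of B cells, was highest in K187R 1 (343), outside set 2, and Cr2 and Fcer2a lay between 0 and 15.2.

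Dendritic cell markers more often had set 2 on top. Of 8 found, 4 were tested (Itgax, Flt3, Zbtb46 and Clec10a), all 4 with set 2 above the other 5 samples, and Xcr1, Clec9a, Siglech and Cd300c lay between 0 and 12.7. Their sum, most of it Itgax, was 880 to 1801 in WT and 1209 to 2627 in K187R. It was 1801 to 2627 in set 2 against 880 to 1229.6 elsewhere. Flt3, a growth factor receptor of dendritic cells, had 149.7, 335, 134 and 94.1 in WT 1 to 4 and 251, 419.7, 351 and 131 in K187R 1 to 4. The r with the member mean was 0.989 for Zbtb46, 0.958 for Flt3, 0.819 for Itgax and 0.617 for Clec10a. Of 12 monocyte and macrophage markers, 12 were tested and 5 had set 2 on top (Csf1r, C1qa, C1qb, C1qc and Cd14). The sum of all 12 was highest in WT 4 (62928) and K187R 4 (66046), where class II was lowest, and most of it was Lyz2. The sum of 10 T cell markers ran only from 201420 to 236113. NK cell markers were low, with sums of 52.5 to 525, highest in set 2. Most of that sum was Gzma (389 to 461 in set 2, 30.2 to 143 elsewhere), while Klre1 was highest in WT 1 (46.3). Cd8a and Cd8b1 together had 387 to 1141, lowest in set 2. The part of any of these cell types in the levels of the members was not tested.

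**Figure D5:**
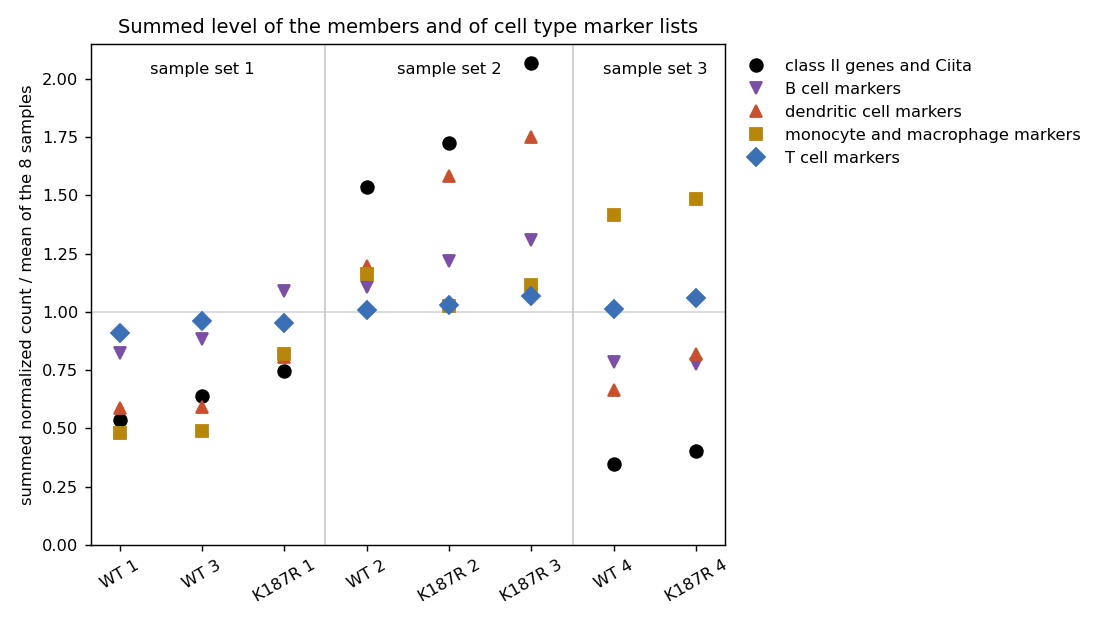
Summed normalized count of the members and of 4 cell type marker lists in each sample, divided by the mean of the 8 samples (linear axis from 0), with samples ordered by set. The sums of the members and of the dendritic cell markers, the latter mostly Itgax, are highest in the 3 samples of set 2. The sum of the monocyte and macrophage markers, most of it Lyz2, is highest in WT 4 and K187R 4, and that of the T cell markers stays near 1.

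As a summed list, the factors that bring Ciita to DNA varied less than the members. The highest sample was 1.21 times the lowest for their sum, against 5.93 times for the sum of the members. Their r with the member mean ran from -0.688 (Rfxap) to 0.685 (Rfx5). None of the 8 cofactor genes passed in limma, their median log2 fold change was 0.01, and none had set 2 above the other samples. Nfya, a subunit of the factor that binds the Y box, lay between 5291 and 6149 normalized counts in all samples, and Atf1 and Nfyc, which with Nfya had the highest levels of the list per kilobase of merged exons, had log2 fold changes of -0.10 (SE 0.086) and 0.04 (SE 0.086). In the route from interferon γ to Ciita, which induces class II in many cell types, none of 10 genes passed, with a median log2 fold change of 0.06, and 4 had set 2 on top. Ifngr1, the ligand-binding chain of the receptor, had 21740.2, 20440.2, 21301 and 16392 in WT 1 to 4 and 13343, 12721, 12902 and 13161 in K187R 1 to 4. The groups did not overlap, with K187R lower by a log2 fold change of -0.61 (SE 0.093), the opposite direction to the members, and an adjusted p of 0.344 in limma. Jak1 and Jak2, the kinases of this receptor, had log2 fold changes of 0.08 (SE 0.079) and -0.05 (SE 0.17).

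Genes that act on class II after transcription varied less, as summed lists, than the sum of the members, whose highest sample was 5.93 times its lowest. The sum of the antigen processing genes varied 1.59 times and that of the turnover genes 2.13 times. None of 9 genes of antigen processing passed in limma, 7 had the higher mean in K187R, the median log2 fold change was 0.29, and 3 had set 2 on top. Ctss, the protease that trims the invariant chain, had 14903, 21599, 14979 and 20934.5 normalized counts in WT 1 to 4 and 20804, 22973, 21907 and 23718 in K187R 1 to 4, so WT 1 and WT 3 stood apart from the other 6 samples (log2 fold change 0.32, SE 0.13, adjusted p = 0.921). Of the turnover genes 3 were found and 0 passed. March1, a ubiquitin ligase that removes class II from the surface, had its 3 highest values in set 2 (928 to 1271, against 548 to 896 elsewhere), as did Cd83, which opposes March1 (930.1 to 1057.5 against 390.4 to 634). Among 6 ligands and partners of Cd74, of which 5 were tested and 0 passed, the median was -0.02, and the cytokine Mif had a log2 fold change of 0.01 (SE 0.16).

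MHC class I genes, which are expressed by nearly all cells, served as a neighbouring pathway. None of 15 passed in limma, 12 had the higher mean in K187R, the median log2 fold change was 0.12, and 5 had set 2 above the other samples. The sum of the list varied 1.33 times between samples. B2m, the light chain of class I, had 79714 to 92445 normalized counts in set 2 and 53149 to 67478 elsewhere. H2-K1 had 63404 to 78917 against 51417 to 57439, so class I was also higher in set 2, by a smaller factor. In the list of 7 Th17 genes the median log2 fold change was 0.74, and none passed with the groups alone. Il1r1, an interleukin 1 receptor chain, had the smallest p of the list in that fit (0.88, SE 0.14, adjusted p = 0.344 in limma). With the sample set Ccr6, a chemokine receptor of Th17 cells, was the 1 gene called (0.90, SE 0.082, adjusted p = 0.0157 in limma).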

How the data were processed

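RNA seq was made from 4 WT and 4 K187R samples. Per the labels, bcl2fastq, HISAT2 and featureCounts were used on GRCm38, and the study's methods add Cutadapt, GENCODE M15 and DESeq2. The labels and the methods name different library kits, and the strand setting is not given in the sources used here. The authors deposited a signal for each of 22829 genes, which is the gene's read number after division by the size factor of the sample. All values (100%) were whole reads within 0.01 of a read, with size factors of 0.842 to 1.18. No column was left unused.

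Groups and numbers were taken from the labels. limma 3.58.1 (R 4.3.3, lmFit and eBayes with a trend) was run on log2(normalized count + 1). The 16982 genes that reached a mean of 10 entered it, with Benjamini-Hochberg adjustment over all of them and a threshold of 0.05. It was chosen because the values are not counts. The recovered reads were used in edgeR 4.0.16 (quasi-likelihood) and DESeq2 1.42.0. Single members were also tested by an exact two-sided permutation of the 8 samples. Sample sets came from complete-linkage clustering. Per-length values used GENCODE M21 exons, in which 22784 of the gene identifiers were found, and 21 symbols turned into dates were restored by identifier. The fits were checked on simulated counts. Low counts have a wider relative counting error, and at 3 reads a gene cannot be told from its floor. Other tools were pandas 2.3.3, scipy 1.17.1, numpy 2.4.6 and matplotlib 3.10.9 in Python 3.11.15.

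The members and the gene lists were chosen with earlier results of these data known. All members were named. From each related list the text gives counts over the whole list, with examples from the 3 genes highest per kilobase of exon, the gene with the smallest p and, as for Ccr6 with the sample set, a gene past the threshold. The similar genes are the 12 with the highest r to the member mean and the 6 with the highest r to Ciita. Pax5, Flt3, Cr2, Fcer2a, Spib, Blnk, Bank1, Clec10a, C1qa, C1qb, C1qc, Cd14, Rfx5, Rfxap and the markers near 0 were named after their values were seen. The sample set and the other alternatives tried are in the closing section. The level of the transduced gene is not reported here.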

Additional observations from a re-analysis of the deposited data

How the results depend on the processing

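The members kept their direction, with all 10 higher in K187R, under every alternative run: a pseudocount of 5 or 0.5, a stricter filter (mean of 50) or none, TMM scaling, median centring, the replicate block, the sample set, each sample left out, edgeR and DESeq2. The edgeR and DESeq2 fits with the set or the block and the fit without the 3 samples of high Xist were chosen after seeing the data. The number of genes called was 0 with the groups alone, 1 with the sample set in limma and in edgeR, and in DESeq2 it was 27 with the groups alone, 143 with the sample set and 175 with the replicate block. It ran from 0 to 4 with single samples left out, the 4 being without WT replicate 4. Ciita was called only by DESeq2 with the sample set, with a log2 fold change of 0.64. Its log2 fold change ran from 0.53 to 1.67 over the alternatives. The median of the members ran from 0.31 to 1.12 with single samples left out.

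Same-numbered samples deviated together for numbers 1, 2 and 4 (r = 0.592, 0.663 and 0.630) and not for number 3 (-0.092), and 6 of 8 samples correlated best with their own number, a hint from the data and not the design. With the replicate block limma called 0 genes and edgeR called 0. At an unadjusted p under 0.05 the block in limma had 2046 genes and 9 of the 10 members, all except H2-Oa, against 746 genes and 0 members without it, and the median SE of the members was 0.26 against 0.55. K187R was higher in all 4 same-numbered pairs for 8 of the 10 members, the exceptions being H2-DMb1 and H2-Ob. Number 3 sets WT 3 of set 1 against K187R 3 of set 2, so its difference also holds that between the sets (H2-Aa 3058 against 11033). The block left the median log2 fold change of the members at 0.68, where the sample set as a factor gave 0.31. The cause of the differences between the tools was not tested. With 4 samples a group, the differences of the classical chains were smaller than the spread between samples, and at 992 reads or more in every sample counting error is a minor part of that spread.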
